A study of Rattus norvegicus with 8 samples.

Results

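The sarcomeric myosin light chains and the skeletal light chain kinase were followed in extraocular muscle, the small muscles that move the eye, of hyperthyroid and untreated rats. The rule took every probe set whose single gene symbol was Myl1, Mylpf, Myl2, Myl3, Myl4, Myl6b or Mylk2. It gave 7 probe sets, of 31042 on the array, for 5 of the 7 genes, out of 14217 genes named by a probe set of their own. Mylpf had none under that name. Its present symbol in the RefSeq gene table is Myl11, which the annotation uses for 1 probe set, and that probe set is described here as the gene meant, outside the count of 7. Myl6b appeared only on 1 probe set shared with other symbols, so it has no value here. All 8 probe sets, Myl11 included, were bright enough to be tested.

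Total RNA was measured on Affymetrix arrays, 1 for each of 8 adult Sprague-Dawley rats that weighed 200 ± 40 g at the start. In the hyperthyroid group, 4 rats were injected with triiodothyronine (T3, the active thyroid hormone) into the abdomen, 25 µg per 100 g of body weight every 2 days for 6 weeks, and muscles were taken 24 hours after the last dose. The 4 control rats were untreated, and a mock injection is not among the treatments stated. Numbers in the sample titles serve as array names: hyperthyroid 1, 2, 3, 5 against control 7, 8, 9, 11. Dissected muscles were used without sorting of cells, so the signals mix all their fibre types and other cells, and fewer cells of a type cannot be told apart from less RNA per cell.

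Each head of a myosin heavy chain carries an essential and a regulatory light chain on its lever arm. Fast fibres use Myl1 (essential) and Myl11 (regulatory), and slow fibres share Myl3 (essential) and Myl2 (regulatory) with the heart ventricle. Myl4 is the essential chain of embryonic muscle and of the atrium. Mylk2, activated by calcium and calmodulin, phosphorylates the regulatory chain and so raises the force of a following twitch. Thyroid hormone is known to move limb muscles from slow towards fast myosin, and extraocular muscle is known for holding developmental myosins in the adult.

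The array labelled hyperthyroid 5 went against its tissue label. Of 4 genes fixed as extraocular markers, 3 were measured (Myh13, Myh3 and Myh8), and their summed signal was 223 on it against 20859 to 36116 on the other 7 arrays. Myh13, the extraocular heavy chain, stood at 4.17 there and at no less than 5430 elsewhere. The summed signal of 8 measured Hox genes, which mark position along the trunk and limbs, was 1306 on it and at most 208 on the others. Hoxa10 (399), Hoxa9 (345), Hoxd8 (301), Hoxc9 (117), Hoxd10 (63.1) and Hoxa11 (50.9) were each highest on it. Hoxc8 (21.6) and Hoxd9 (8.93) lay inside the range of the others. Of the Hox genes, only Hoxd8 was bright enough to be tested. The striated muscle sum (Acta1, Ckm, Des, Ttn and Neb) on hyperthyroid 5 was 82906, inside the range of the others, 61249 to 101391. Hyperthyroid 2 also stood apart, with a summed oligodendrocyte and glial signal of 1058 against 6848 to 15385 on the other arrays but hyperthyroid 5, which was at 85.1. The 3' to 5' ratio of Gapdh, higher where RNA is shorter, was 2.18 to 4.40 on hyperthyroid 1, 2 and 3, 1.44 on hyperthyroid 5 and 1.67 to 1.97 on controls. The group comparisons are therefore given with and without hyperthyroid 5, and some also without hyperthyroid 2.

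No light chain differed between the groups beyond the spread of the arrays. On all 8 arrays limma called 0 of the 8 probe sets at an adjusted p under 0.05, where 0.0% of the 18625 probe sets tested were called, and 0 of 8 at an unadjusted p under 0.05, where 11.5% were. Without hyperthyroid 5 it again called 0 of 8, against a background of 0.156%, and 0 of 8 at an unadjusted p under 0.05, against 15.2%. The member probe sets were higher in hyperthyroid arrays in 5 of 8 cases with a median log2 difference of 0.10, beside 52.5% and a median of 0.03 over all probe sets tested. Without hyperthyroid 5 they were higher in 6 of 8, with a median of 0.09, beside 54.2% and 0.04 over all. Median centring would shift the differences of all probe sets by -0.12 and, without hyperthyroid 5, by -0.18, so the directions of smaller differences are set by the scaling. The groups overlapped for each of the 8, with or without that array, whereas 7.55% and 14.8% of all probe sets tested showed no overlap.

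**Figure D1:**
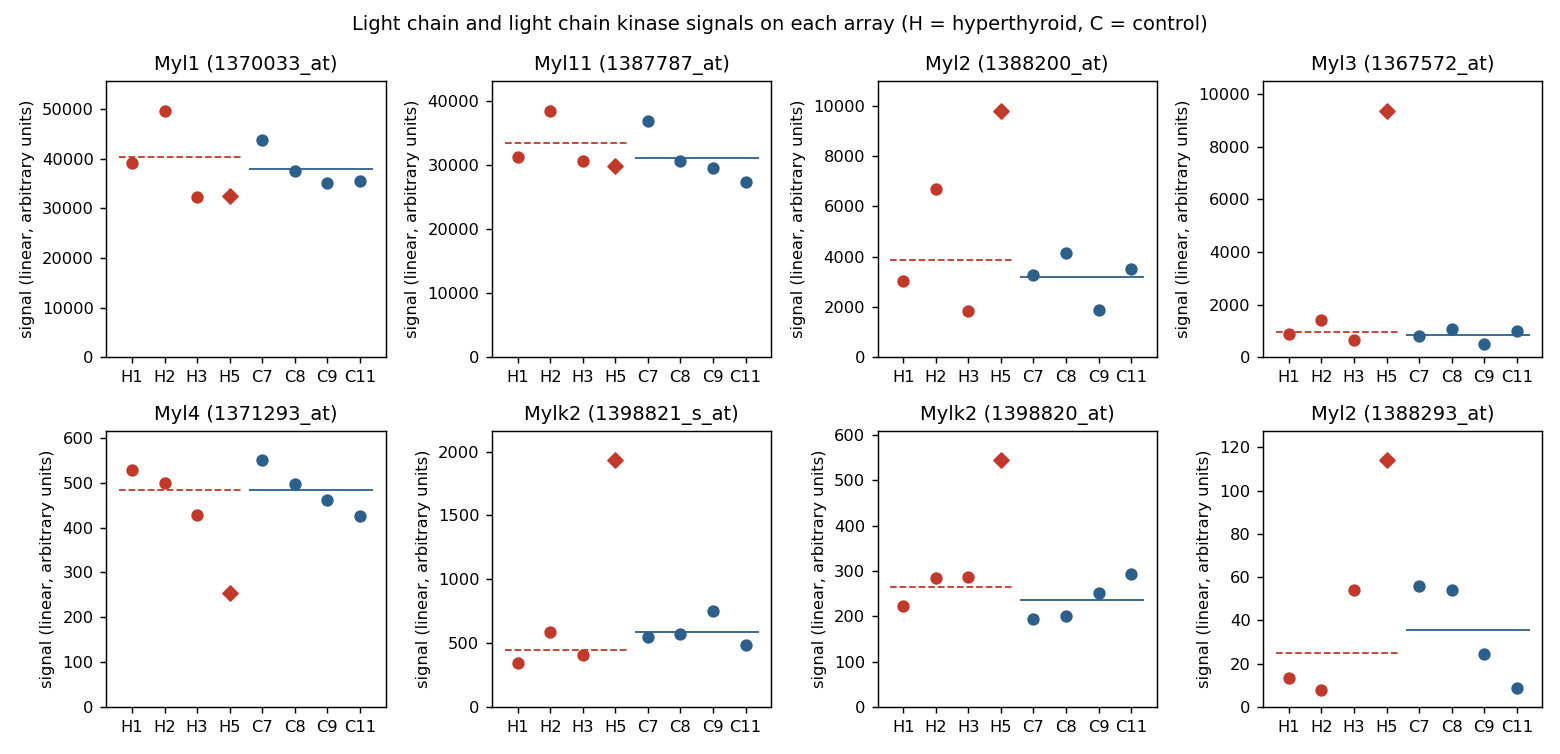
Signal (linear, arbitrary units, vertical axes from 0) of the 8 probe sets on each array. Red points are hyperthyroid (H, the diamond is hyperthyroid 5) and blue points control (C), the dashed line is the mean of hyperthyroid 1, 2 and 3 and the solid line the control mean; hyperthyroid 5 is the highest for Myl2, Myl3 and Mylk2 and the lowest for Myl4, while the fast chains Myl1 and Myl11 show it inside the range of the others.

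The fast essential chain Myl1 (probe set 1370033_at) had hyperthyroid signals of 39102, 49726, 32367 and 32558 (arrays 1, 2, 3, 5). Its control signals were 43775, 37584, 35062 and 35582 (arrays 7, 8, 9, 11). The single high array was hyperthyroid 2, while hyperthyroid 3 and 5 lay below all controls and hyperthyroid 1 among them. The hyperthyroid mean was 38438 ± 8151 and the control mean 38001 ± 4000 (SD, n = 4 each). In limma the log2 difference was -0.00063 ± 0.17 (SE, adjusted p = 0.999), and its 95% interval ran from -0.37 to 0.37. A change in either direction of up to 1.29-fold is thus inside the interval. Without hyperthyroid 5 the difference was 0.07 ± 0.15 (adjusted p = 0.856), and without hyperthyroid 2 and 5 it was -0.09 ± 0.13.

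Myl11, the fast regulatory chain (1387787_at), stood at 31239, 38511, 30614 and 29794 on hyperthyroid 1, 2, 3 and 5. Its control signals were 36949, 30616, 29574 and 27388 on control 7, 8, 9 and 11. Here too hyperthyroid 2 was highest and control 7 came next. The means were 32540 ± 4025 and 31132 ± 4105 (SD, n = 4 each), a log2 difference of 0.07 ± 0.15 (adjusted p = 0.883 in limma), with an interval from -0.26 to 0.39. Without hyperthyroid 5 the difference was 0.10 ± 0.14 (adjusted p = 0.749). The fast chains varied little between the 7 arrays that carried the extraocular markers, by 1.54-fold for Myl1 and 1.41-fold for Myl11 from lowest to highest, beside a median of 1.53-fold in the brightest 1863 probe sets. Fast fibre markers had a summed signal of 118007 on hyperthyroid 5, inside the range of the others (105584 to 149379), as were both fast chains. Without hyperthyroid 5 these markers had log2 differences of -0.41 (Pvalb), -0.32 (Tnni2), -0.31 (Tnnt3), -0.25 (Atp2a1) and 0.07 (Tnnc2), and none passed the threshold.

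Myl2, the slow regulatory chain, had 1 bright probe set (1388200_at), with signals of 3048, 6680, 1855 and 9816 on hyperthyroid 1, 2, 3 and 5. The controls 7, 8, 9 and 11 had 3278, 4138, 1863 and 3493. Hyperthyroid 5 was highest and hyperthyroid 2 next, while hyperthyroid 3 lay beside control 9 at the low end. The means were 5350 ± 3616 and 3193 ± 959 (SD, n = 4 each), and the log2 difference of 0.52 ± 0.45 did not pass (adjusted p = 0.668 in limma, interval from -0.46 to 1.5). Without hyperthyroid 5 it was 0.13 ± 0.36 (adjusted p = 0.894), and without hyperthyroid 2 and 5 it was -0.37 ± 0.28. Without hyperthyroid 3 alone it was 0.93 ± 0.38 (unadjusted p = 0.0318, adjusted p = 0.435 in limma). The size thus moved with single arrays, and the adjusted p ran from 0.435 to 0.922 over the settings run on all 8 arrays. The other Myl2 probe set (1388293_at) was dim, at 13.6, 7.77, 53.9 and 114 on the hyperthyroid arrays 1, 2, 3 and 5 and at 8.91 to 55.7 on controls. It did not follow the bright one, since hyperthyroid 2 was its lowest array, and its log2 difference was -0.0030 ± 0.94 (adjusted p = 0.999), or -0.67 ± 1.01 without hyperthyroid 5.

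Myl3, the slow essential chain (1367572_at), had the largest group difference, and it rested on 1 array. Its signal was 866, 1421, 636 and 9380 in the hyperthyroid rats (1, 2, 3, 5) and 823, 1078, 512 and 981 in the controls (7, 8, 9, 11). Hyperthyroid 5 was thus 6.60 times the highest of the other arrays and 11.1 times the control mean. Of all probe sets tested, 8 (0.043%) exceeded the other 7 arrays by over 5 times on hyperthyroid 5, Myl3 among them. This share leaves out probe sets dim on most arrays, which the filter removed before testing. Among those removed, Hoxa10, Hoxa9 and Hoxc9 were 14.3, 9.51 and 5.73 times the highest other array on hyperthyroid 5. With hyperthyroid 5, the means were 3076 ± 4216 and 848 ± 248 (SD, n = 4 each). The log2 difference was 1.01 ± 0.66 (adjusted p = 0.568 in limma, interval from -0.45 to 2.47). Without it, the hyperthyroid mean was 974 ± 404 (n = 3) and the difference 0.17 ± 0.28 (adjusted p = 0.803, interval from -0.44 to 0.79). Without hyperthyroid 2 as well it was -0.14 ± 0.26. Without hyperthyroid 3 alone it was 1.47 ± 0.65 (unadjusted p = 0.0480, adjusted p = 0.466 in limma), and over the settings run on all 8 arrays the adjusted p ran from 0.466 to 0.803.

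The slow chains varied together from animal to animal. Over the 7 arrays without hyperthyroid 5, Myl2 ranged 3.60-fold and Myl3 2.78-fold. The median range was 2.15-fold over all probe sets tested and 1.53-fold in the brightest 1863. The log2 signals of the pair had a Pearson r of 0.97 (exact permutation p = 0.000794, adjusted p = 0.0119 over 15 pairs of members) and a Spearman rank correlation of 0.93 (exact permutation p = 0.00675, adjusted p = 0.101). Without the 2 arrays farthest from the Myl2 median, r was 0.98. The pair thus passed the adjustment by Pearson r only, and of the other 14 pairs none passed by either measure. The next was Myl1 with Myl11, at an r of 0.88 (exact permutation p = 0.0121, adjusted p = 0.0908) and a Spearman rank correlation of 0.86 (exact permutation p = 0.0238, adjusted p = 0.119), and it fell to an r of 0.23 without 2 arrays. Myl1 also had an r of 0.82 with Myl2, 0.70 with Myl3, 0.70 with Myl4 and 0.20 with Mylk2. The points share the scaling of each array, and both groups are pooled in them.

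**Figure D2:**
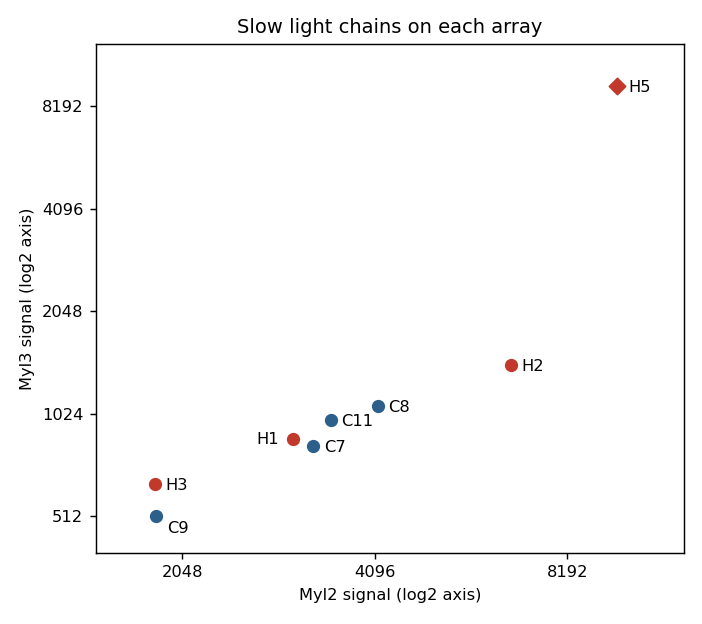
Myl3 signal against Myl2 signal on each of the 8 arrays, both on log2 axes; red is hyperthyroid, blue is control and the diamond is hyperthyroid 5. The 7 arrays other than hyperthyroid 5 lie along 1 line with both groups mixed (r = 0.97), and hyperthyroid 5 lies above that line, with Myl3 at 9380 and Myl2 at 9816.

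At the brightest probe set of each gene, other slow fibre genes were also highest on hyperthyroid 5 and next on hyperthyroid 2. Myh7, the slow heavy chain that Myl2 and Myl3 bind, had 13031 on hyperthyroid 5 and 4097 on hyperthyroid 2, and 1795 to 2728 on the other 6. The dimmer Myh7 probe set was also highest on hyperthyroid 5 (422) but disagreed on hyperthyroid 2. It had 66.9 there, against 76.1, 117, 56.6 and 144 on controls 7, 8, 9 and 11. Without hyperthyroid 5 its log2 difference was -0.73 ± 0.39, against 0.23 ± 0.23 at the brighter one, and neither passed. Tnnc1, the slow and cardiac troponin C, had 10175 and 4168 on hyperthyroid 5 and 2, and at most 3098 elsewhere. The summed signal of 5 slow fibre markers was 44197 on hyperthyroid 5, 22333 on hyperthyroid 2 and 10775 to 15238 on the other 6 arrays. Relative to the control mean, hyperthyroid 5 was 11.1 times for Myl3, 5.56 for Myh7, 4.0 for Tnnc1, 3.07 for Myl2, 2.93 for Tnni1, 2.12 for Tnnt1 and 1.84 for Atp2a2, the slow calcium pump. The factors of these slow fibre genes on the array were unequal, with Myl3 above the others named. The heart also uses Myl2 and Myl3. Of the 5 heart markers, only Myh6 was bright enough to be tested. On hyperthyroid 5 it was below the other arrays (35.4 against 151 to 427) and set the lower sum of the 5 (120 against 224 to 498). Nppb (63.6 there against at most 36.9), Nppa (4.63), Tnni3 (13.2) and Myl7 (3.08) were too dim to be tested. Of these, Nppb was above the other arrays and the rest lay inside their range. The summed adipocyte markers were higher on hyperthyroid 5, 6365 against 845 to 3075, and their part in these values was not tested.

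By the highest Pearson r over all 8 arrays, a description with no test, the genes most like Myl3 were Tnnc1 (0.98), Myoz2 (0.98), Myh7 (0.98), Fhl1 (0.97) and Fez2 (0.97). Those most like Myl2 were Hspb7 (0.98), Lmod2 (0.96), Tnnt1 (0.95), Tnni1 (0.95) and Tnnc1 (0.93). Over the 7 arrays without hyperthyroid 5, those most like Myl2 were Mb, for myoglobin (0.98), Myl3 (0.97), Patl1 (0.97), Sap130 (0.97) and Hspb7 (0.96). Those most like Myl3 were then Myl2 (0.97), Tnnc1 (0.96), Osbpl3 (0.96), St6galnac2 (0.96) and Atp2a2 (0.96). For the fast chains the first genes over 8 arrays were Hsd3b5 (0.97) and Snupn (0.96) for Myl1, and Phyh (0.95) and Ccdc9b (0.95) for Myl11. The values were the highest among 13856 tested probe sets of a single symbol, and the arrays share their scaling. On hyperthyroid 5 Myl3 lay 3.52 above the control mean in log2, and on the other arrays between -0.68 and 0.80. Its r over 8 arrays therefore rests mostly on that array.

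Myl4, the embryonic and atrial chain (1371293_at), went the other way on hyperthyroid 5. Its hyperthyroid signals were 528, 499, 427 and 254 (arrays 1, 2, 3, 5), beside control signals of 550.2, 497, 462 and 425 (arrays 7, 8, 9, 11). The 7 other arrays lay within 1.29-fold of each other, and the lowest of them was 1.68 times the value on hyperthyroid 5. The means were 427 ± 123 and 484 ± 53.3 (SD, n = 4 each), with a log2 difference of -0.23 ± 0.22 (adjusted p = 0.702 in limma, interval from -0.71 to 0.26). Without hyperthyroid 5 the means were 485 ± 51.7 (n = 3) and 484, and the difference was 0.0038 ± 0.15 (adjusted p = 0.993, interval from -0.32 to 0.33). The developmental heavy chains Myh3 (embryonic) and Myh8 (neonatal) were at 165 and 54.2 on that array, against at least 6412 and 7599 elsewhere. Myl4 thus retained 0.525 of its control mean on hyperthyroid 5, Myh3 0.0206 and Myh8 0.00532. The genes most like Myl4 over 8 arrays were Snn (0.99), Pptc7 (0.98), Txndc16 (0.98), Sbspon (0.97) and Cdkn1a (0.97). None of them was among the first 5 without hyperthyroid 5, which were Rbm15, Pias1, Zfp358, Relt and Pa2g4 (each 0.96).

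**Figure D3:**
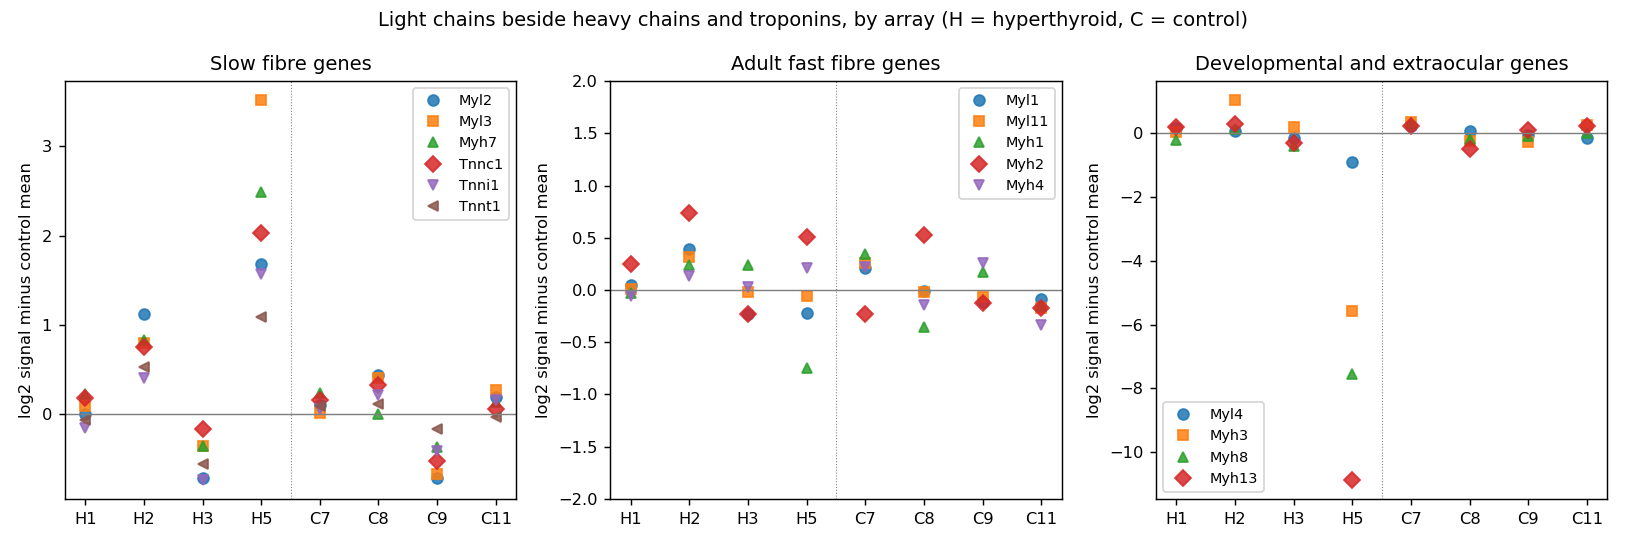
Log2 signal minus the control mean on each array (H hyperthyroid, C control), for slow fibre genes, adult fast fibre genes and developmental or extraocular genes. On hyperthyroid 5 the slow genes lie above 0, up to 3.52 for Myl3, the fast chains Myl1 and Myl11 lie near 0, and Myl4 lies at -0.92 while Myh3 and Myh8 lie at -5.58 and -7.54 and Myh13 lower still, at a signal of 4.17, so dim that its distance is imprecise; the 3 panels have different vertical scales.

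The skeletal light chain kinase Mylk2 had 2 probe sets, which agreed on hyperthyroid 5 and differed on the rest. The brighter (1398821_s_at) gave 348, 590.4, 406 and 1932 in the hyperthyroid rats (1, 2, 3, 5) and 545, 568, 748 and 487 in the controls (7, 8, 9, 11). Apart from hyperthyroid 5, at 2.58 times the highest other array, hyperthyroid 1 and 3 were the lowest arrays, while hyperthyroid 2 lay above 3 of the 4 controls. The log2 difference was 0.13 ± 0.43 on all 8 arrays (adjusted p = 0.925 in limma) and -0.41 ± 0.20 without hyperthyroid 5 (adjusted p = 0.364, interval from -0.85 to 0.03). Without hyperthyroid 2 as well it was -0.62 ± 0.19, and over the settings run without hyperthyroid 5 the adjusted p ran from 0.179 to 0.643. The other probe set (1398820_at) had 223, 284, 288 and 545 on the hyperthyroid arrays and 194, 201, 252 and 294 on the controls. Its difference was 0.45 ± 0.26 (adjusted p = 0.537) and, without hyperthyroid 5, 0.18 ± 0.20 (adjusted p = 0.693). Without hyperthyroid 5 the 2 probe sets therefore differed in sign, and neither passed. The Gapdh ratio was above every control on hyperthyroid 1, 2 and 3, and its part in these values was not tested.

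**Figure D4:**
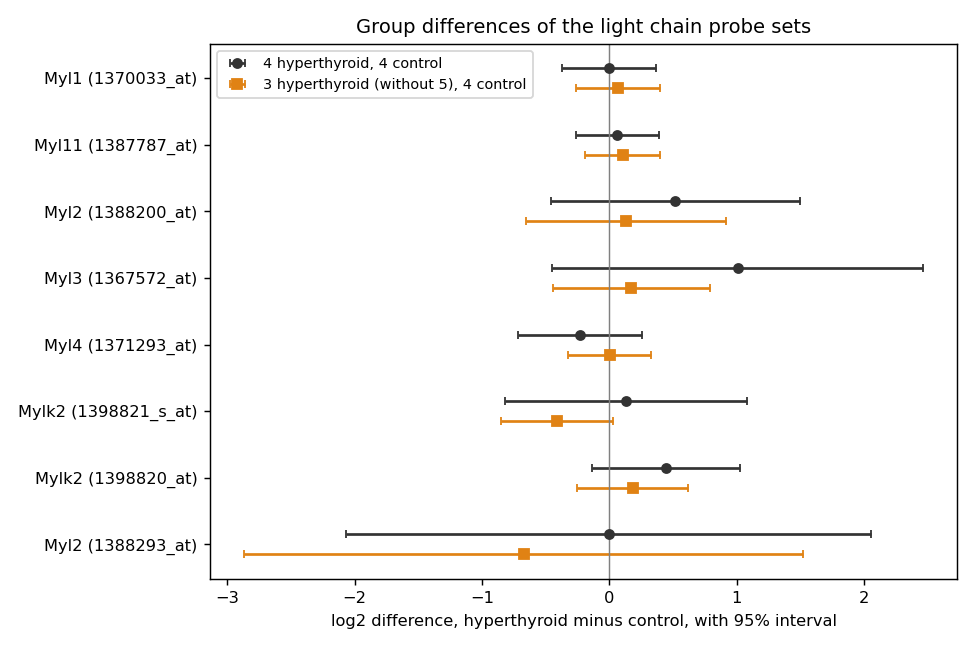
Log2 difference, hyperthyroid minus control, with its 95% interval from limma for the 8 probe sets. Circles use all 8 arrays and squares leave out hyperthyroid 5; each interval includes 0, and for Myl3 the estimate goes from 1.01 to 0.17 and the interval narrows when that array is left out.

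Hyperthyroid 5 lay above the other 7 arrays by over 1.5 times for 4 of the 8 probe sets (Myl3, the dim Myl2 and both Mylk2), where 2.46% of all probe sets tested did so. It lay below them by over 1.5 times for 1 (Myl4), beside 5.73%. Hyperthyroid 2 was the highest of the 7 other arrays for 4 of 8 (Myl1, Myl11, the bright Myl2 and Myl3), beside 21.2%. These counts describe single arrays and carry no test. The shares cover tested probe sets only, and the filter had removed those dim on most arrays, also where hyperthyroid 5 was high.

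The promoters of Myl3 and Myl4, which parted on hyperthyroid 5, are shown with those of the fast chains Myl11 and Myl1, which did not, to set their sequences beside the values. Myl2 and Mylk2 are not shown. The RefSeq promoter table (GRCr8) held 5 promoters for 4 of the 6 genes with values. Each spans 250 bases before to 50 after a transcription start. Capitals mark matches to the E-box CANNTG (bound by myogenic factors), to AGGTCA or its complement TGACCT (the half-site of thyroid hormone receptors), or to the MEF2 consensus, all searched on both strands.
Myl3, chr8:119616844-119617143, plus strand: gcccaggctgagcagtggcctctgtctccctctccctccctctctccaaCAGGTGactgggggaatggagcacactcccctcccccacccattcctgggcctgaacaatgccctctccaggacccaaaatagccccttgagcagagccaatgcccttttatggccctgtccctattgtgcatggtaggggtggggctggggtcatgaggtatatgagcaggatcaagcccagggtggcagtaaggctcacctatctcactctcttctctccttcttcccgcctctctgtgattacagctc
Myl4, chr10:89975900-89976199, plus strand: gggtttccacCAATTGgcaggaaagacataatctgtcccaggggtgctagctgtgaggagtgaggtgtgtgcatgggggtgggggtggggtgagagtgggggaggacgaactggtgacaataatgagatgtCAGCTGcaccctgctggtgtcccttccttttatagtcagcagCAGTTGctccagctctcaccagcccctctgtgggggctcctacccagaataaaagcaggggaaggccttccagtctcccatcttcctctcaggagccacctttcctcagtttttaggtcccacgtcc
Myl11, chr1:191260039-191260338, plus strand: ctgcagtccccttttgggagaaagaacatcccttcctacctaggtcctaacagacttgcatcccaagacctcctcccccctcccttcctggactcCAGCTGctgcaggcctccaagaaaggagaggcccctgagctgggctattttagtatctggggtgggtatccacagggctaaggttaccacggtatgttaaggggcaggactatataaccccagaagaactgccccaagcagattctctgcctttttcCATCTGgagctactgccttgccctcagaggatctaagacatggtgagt
Myl1, chr9:75897750-75898049, minus strand: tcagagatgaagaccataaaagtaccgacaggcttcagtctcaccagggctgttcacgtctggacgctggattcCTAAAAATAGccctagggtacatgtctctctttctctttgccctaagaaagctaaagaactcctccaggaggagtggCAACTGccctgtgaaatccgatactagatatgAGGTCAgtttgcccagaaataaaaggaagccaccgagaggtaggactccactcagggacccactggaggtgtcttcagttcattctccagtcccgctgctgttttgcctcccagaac

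Myl3 held 1 E-box, Myl4 held 3 and Myl11 held 2, and none of the 3 held the half-site or the MEF2 consensus in this window. Myl1 has 2 starts in the table, as the gene gives a longer and a shorter essential chain. The promoter printed, of the start nearer the 3' end, held 1 match each to the E-box, the half-site and the MEF2 consensus. The upstream one (chr9:75907647-75907946) held 1 E-box and no match to the others. Of 33469 promoters in the table, 72.1% held an E-box, 16.2% the half-site and 3.29% the MEF2 consensus. The deposited values do not say which start a Myl1 signal came from.

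Genes of a wider light chain list gave no call either. Of 22 genes fixed for this list (among them kinases, phosphatase subunits, calmodulins, other light chains and myosin chaperones), 16 had a probe set of a single symbol and 13 were tested. On all 8 arrays 6 were higher and 7 lower (median log2 difference -0.15 beside 0.03 over all probe sets), and limma called 0 of 13, with 0 at an unadjusted p under 0.05. Without hyperthyroid 5, 4 were higher and 9 lower (median -0.12 beside 0.04), with 0 called and 2 at an unadjusted p under 0.05, a share near the 15.2% of all probe sets.

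Calm2, for calmodulin, the calcium sensor that switches on Mylk2, was one of the 2. It had 3064, 2221 and 3433 on hyperthyroid 1, 2 and 3, all below the controls at 3671.6, 3751, 4044 and 3571, while hyperthyroid 5 was above them at 4685. Its difference was -0.22 ± 0.19 on all 8 arrays, -0.39 ± 0.14 without hyperthyroid 5 (adjusted p = 0.231 in limma) and without hyperthyroid 2 as well -0.21 ± 0.12. Mylk, the kinase of smooth muscle and non-muscle cells, was the other, with 1018, 753, 880.4 and 566 in the hyperthyroid rats (1, 2, 3, 5) beside control values of 522, 854, 538 and 622. Its difference was 0.34 ± 0.21 on all 8 arrays and 0.50 ± 0.18 without hyperthyroid 5 (adjusted p = 0.235). Beside it, the sum of 5 smooth muscle markers was 2576 to 3461 on hyperthyroid 1, 2 and 3, 1550 on hyperthyroid 5 and 1939 to 3411 on controls, and its part in the Mylk value was not tested. Ppp1r12a, the subunit that targets the light chain phosphatase to myosin, had a log2 difference of -0.26 ± 0.14 at its brightest probe set on all 8 arrays, while its other 3 probe sets disagreed, at -0.45, 0.39 and 0.12. Without hyperthyroid 5 the brightest stood at -0.18 ± 0.13 and the others at -0.38, 0.42 and 0.40. Myl9, the smooth muscle regulatory chain, stood at -0.15 ± 0.19, and the non-muscle chains Myl12a and Myl12b at 0.21 ± 0.15 and -0.34 ± 0.18. The myosin chaperones Unc45b and Smyd1 stood at 0.0068 ± 0.16 and 0.03 ± 0.19. Without hyperthyroid 5, Myl9 was at -0.12 ± 0.20, Myl12a at 0.08 ± 0.11, Myl12b at -0.21 ± 0.16, Unc45b at 0.0048 ± 0.16 and Smyd1 at -0.0086 ± 0.20.

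The heavy chains that carry these light chains were tested for 8 of 9 genes, and 0 were called with or without hyperthyroid 5. The adult fast heavy chains had log2 differences of 0.08 ± 0.16 (Myh4, type IIB), -0.07 ± 0.23 (Myh1, type IIX) and 0.31 ± 0.23 (Myh2, type IIA) on all 8 arrays. Without hyperthyroid 5 these were 0.04 ± 0.15, 0.15 ± 0.16 and 0.25 ± 0.23, so that Myh1 changed sign at its brightest probe set. The other Myh1 probe sets disagreed, at 0.11, -0.27, 0.02 and -0.10 on all 8 arrays. Without hyperthyroid 5 they stood at 0.19, -0.14, 0.15 and 0.06. Of the 8 heavy chain genes, 0 were at an unadjusted p under 0.05 on all 8 arrays and 1 without hyperthyroid 5. This share was near the 15.2% of all probe sets. The gene was Myh6, a heart heavy chain, at 0.67 ± 0.28 (adjusted p = 0.288 in limma) but -0.14 ± 0.65 on all 8 arrays. Its signal was 35.4 on hyperthyroid 5 and 378, 427 and 237 on hyperthyroid 1, 2 and 3. The controls had 348, 192, 197 and 151, so that the groups overlapped.

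**Figure D5:**
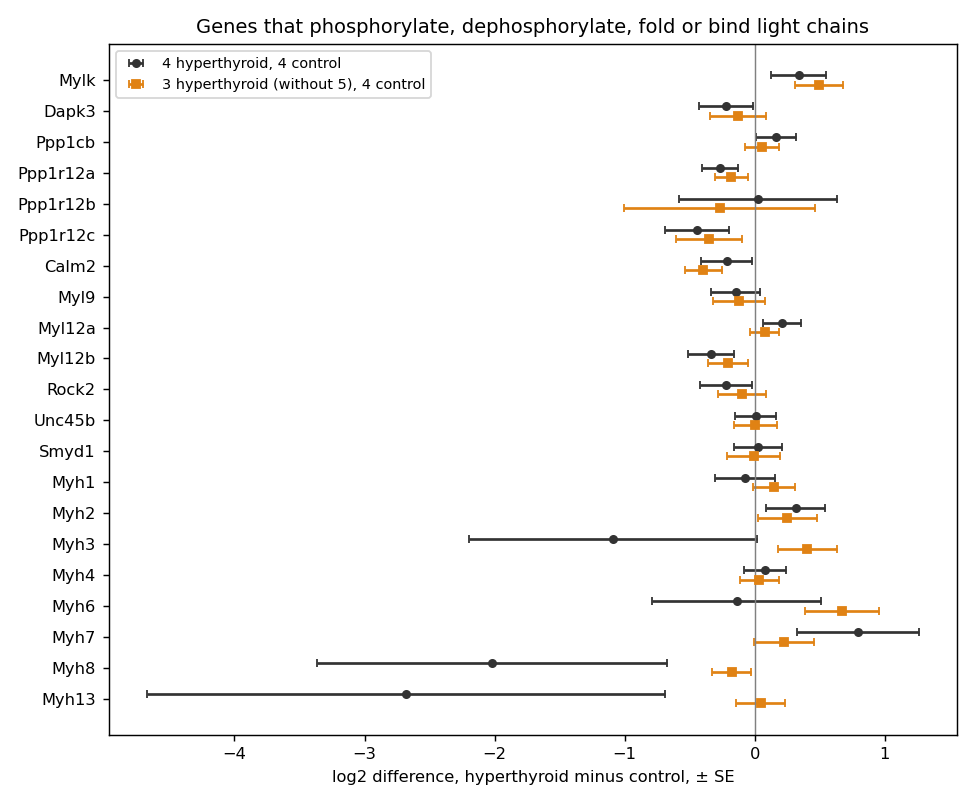
Log2 difference, hyperthyroid minus control, ± SE from limma, for the tested genes of the light chain list and the heavy chains. The list holds kinases, phosphatase subunits, a calmodulin, other light chains and myosin chaperones. Circles use all 8 arrays and squares leave out hyperthyroid 5; most circles lie within 0.5 of 0, and the wide bars of Myh3, Myh8 and Myh13 shrink when that array is left out.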

How the data were processed

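The authors deposited 1 intensity per probe set and array on a linear scale, made with GCOS (scanner software of the array maker, version not given) per the submitters' processing notes. Each array had the same mean signal after 2% was trimmed at each end (150.05 to 150.06), so the deposited intensities had been scaled. Detection calls are not used here. Of 31042 probe sets, after 57 control probe sets were left out, 20826 had 1 symbol in the platform annotation, 436 several (not named) and 9780 none. Signals under 1 were set to 1, and the groups were tested on log2 values in R 4.3.3 by limma 3.58.1 (lmFit, eBayes with a trend, two-sided). The 18625 probe sets tested were the brightest 60% (mean signal above 28.2), with Benjamini-Hochberg adjustment and a threshold of 0.05. A listed gene was represented by its brightest tested probe set, and the marker sums use each gene's brightest probe set. All member probe sets are named, with any gene of the list and, per member, the 5 genes of highest correlation, of which the first few are given. The alternatives were other scalings, filters, an added signal, variance models, array weights and leaving out arrays. The script was checked on simulated data. The members, lists and the fit without hyperthyroid 5 were chosen with earlier results of these data known. Each array is 1 rat, and their number limits the precision. Absolute levels of different genes were not compared. Factors relative to the control mean were set side by side for hyperthyroid 5, and marker sums add signals of different probe sets. How far the response of the probe sets differs was not tested.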

Additional observations from a re-analysis of the deposited data

Results flagged for a closer look

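In the hyperthyroid group, the array labelled hyperthyroid 5 lay apart from the other 3 in 3 heavy chains that stood beside the light chains. The gap to the nearest array was 0.947 of the group's log2 range for Myh13 (signal 4.17, below the filter level), 0.933 for Myh8 (54.2) and 0.851 for Myh3 (165), above Dixon's limit for 4 samples. These 3 genes are the extraocular markers already described as low on hyperthyroid 5, so their flags are not a separate result. In the control group, control 8 lay apart for Myh2, at 17318, with a gap of 0.859 of the range. None of the light chain or Mylk2 probe sets passed this limit. In all, 36 groups of 4 were examined, and chance alone sets apart about 1 in 20.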

How the results depend on the processing

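No member probe set and no gene of the light chain list passed the threshold under any setting run, with or without hyperthyroid 5, and the smallest adjusted p among the 11 probe sets followed through each setting was 0.0834. The count over all probe sets tested was 0 on all 8 arrays, 6 with array weights and 0 to 29 when 1 array was left out, with the 29 all from the fit without hyperthyroid 5. That fit called 10 higher and 19 lower, against 21 and 15 after quantile normalization and 13 and 302 (315 in all) after median centring. It called 71 with no filter, 78 with 32 added before log2, and 0 to 144 when a further array was left out. Dropping hyperthyroid 1, 2 or 3 gave 0, 9 and 144 calls, and dropping control 7, 8, 9 or 11 gave 11, 0, 2 and 0. Median centring, on each array's median of all probe sets, moved the median of all probe sets by -0.12 (all 8 arrays) and -0.18 (without hyperthyroid 5), and the split at an unadjusted p under 0.05 from 1164 higher and 987 lower to 567 and 1623, and from 1413 and 1427 to 530 and 2775. Directions of small differences turned. On all 8 arrays, Myl1 was at 0.10 after quantile normalization, Myl11 at -0.054 after median centring and the dim Myl2 probe set at 0.096 with 32 added. Array weights gave 0.055 for the dim Myl2, -0.26 for the brighter Mylk2 and 0.20 for Myh6. Without hyperthyroid 5, median centring gave -0.11 for Myl1, -0.074 for Myl11, -0.049 for Myl2, -0.0054 for Myl3 and -0.18 for Myl4, and array weights -0.024 for Myl2 and -0.0083 for Myl4. Leaving out 1 array of the 8 gave ranges of -0.13 to 0.074 for Myl1, -0.019 to 0.15 for Myl11, 0.13 to 0.93 for Myl2, 0.17 to 1.47 for Myl3, -0.67 to 0.62 for the dim Myl2, -0.35 to 0.0038 for Myl4, -0.41 to 0.42 for the brighter Mylk2 and -0.52 to 0.67 for Myh6. Leaving out a further array beside hyperthyroid 5 gave -0.089 to 0.22 for Myl1, -0.00063 to 0.19 for Myl11, -0.37 to 0.56 for Myl2, -0.14 to 0.44 for Myl3 and -0.060 to 0.092 for Myl4. The turns after median centring follow from its constant shift, and the cause of the others was not tested. With the filter at the upper 40% the dim Myl2 probe set was not tested. No paired analysis was possible because the groups share no replicate number.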
